A study of Ovis aries with 16 samples.

Results

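DDX4 (Ensembl gene ENSOARG00000007644) encodes an RNA helicase that marks germ cells, and it was followed as 1 of the 25197 genes listed for every library. It was chosen by name, as a measure of the germ cell content of the testis, and its level was compared between diets and with testis traits of the same sheep. The identifier was paired with its symbol through the study's own list of genes that differed between these diets, so the diet difference of DDX4 is a measurement on already inspected sheep and not independent evidence of its direction. The study also reports DDX4, and SPATA6 used below, among genes spliced differently between the diets. The levels here count reads per gene and do not separate isoforms, and splicing was not examined.

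DDX4, known as Vasa in flies, is a DEAD-box RNA helicase, a protein that unwinds and remodels RNA at the expense of ATP. In the testis it is confined to the germ line, from spermatogonia to round spermatids, where it gathers in the nuage and the chromatoid body, the granules in which piRNAs (small RNAs that silence transposons) are made and used. It is absent from the somatic cells of the testis, such as the Sertoli cells that line the tubules, the peritubular myoid cells around them and the Leydig cells between them. For this reason its transcript is widely used to follow germ cells in whole testis tissue.

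The libraries came from adult Merino rams, 1 library for each, with 8 rams in the high diet group and 8 in the low diet group. A group fed for maintenance was not analysed here. Feed was set so that the high diet rams gained 10% of body mass in 65 days while the low diet rams lost 10%, after a period in which all rams had received the same oaten chaff and lupin grain. RNA was taken from the right testis of each ram after pieces from its top, middle and bottom had been mixed. Each library therefore holds whole tissue with germ cells and somatic cells together.

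Between 7646547 and 18230076 reads per library lay on genes, with a median of 13997249.5 in the high diet group and 10883403.5 in the low diet group. Levels are given as CPM, the reads on a gene divided by the reads on all genes of that library and scaled by a constant. Libraries were made comparable with TMM factors, which correct for a shift of the bulk of genes between libraries. High diet sheep 5 and 8 had the smallest factors, 0.859 and 0.739, and the other 14 lay between 0.961 and 1.13. By the labels each library is a separate ram, and no pair of libraries of 1 diet held counts within sampling noise of each other (chi-square per gene of at least 18.1).

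DDX4 was abundant in every ram, with between 3542 and 18541 reads per library. In the high diet group the level was 883 CPM in sheep 1, 587 in sheep 2, 566 in sheep 3, 698 in sheep 4, 1115 in sheep 5, 920 in sheep 6, 608 in sheep 7 and 947 in sheep 8. In the low diet group the level was 834 CPM in sheep 1, 629 in sheep 2, 635 in sheep 3, 418 in sheep 4, 553 in sheep 5, 322 in sheep 6, 419 in sheep 7 and 483 in sheep 8. The groups overlapped, because low diet sheep 1 stood above the median of the high diet group and high diet sheep 2, 3 and 7 stood near the upper low diet sheep. Even so, 5 of 8 low diet sheep lay below every high diet sheep, and 4 of 8 high diet sheep lay above every low diet sheep. Counting error was small beside this spread. The 95% Wilson interval was 313 to 331 CPM for the lowest library, low diet sheep 6, and 1099 to 1131 CPM for the highest, high diet sheep 5. These intervals cover counting error only.

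**Figure D1:**
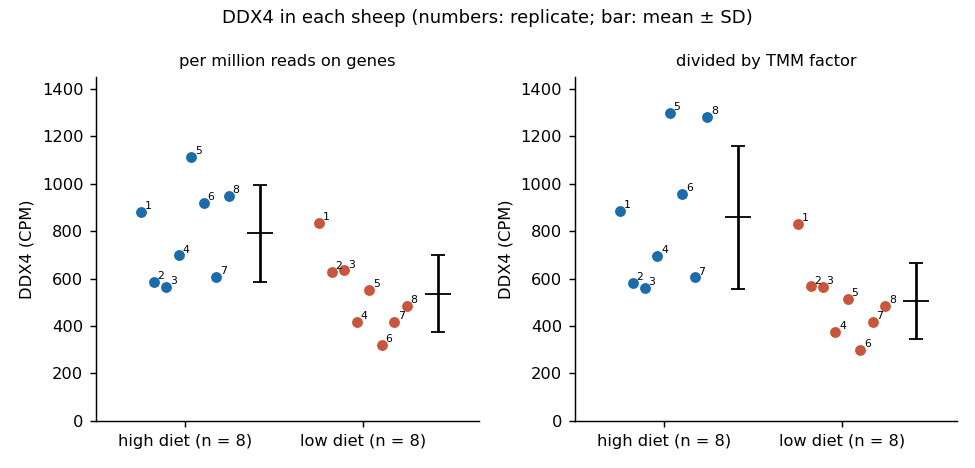
DDX4 level in CPM for each sheep, on library totals (left) and after division by the TMM factor (right), with high diet sheep in blue, low diet sheep in red, replicate numbers beside the points and mean ± SD as bars (n = 8 per diet). On library totals the low diet sheep sit between 322 and 834 CPM and the high diet sheep between 566 and 1115 CPM, and high diet sheep 5 and 8 move up most with the TMM factor.

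The mean level was 791 ± 203 CPM with the high diet and 537 ± 162 CPM with the low diet (SD, n = 8 each). After division by the TMM factor the means were 858 ± 302 and 507 ± 160 CPM. On the log2 scale of CPM over TMM factor plus 1, DDX4 was lower by 0.74 with the low diet (log2 fold change -0.74, SE 0.23), which is 1.67-fold. With limma across the 11148 genes past the filter, the adjusted p was 0.052 (Benjamini-Hochberg), under the threshold of 0.1 used here and in the methods of the study. An exact two-sided permutation test over every assignment of 8 of 16 sheep gave p = 0.0070 on that scale and p = 0.016 on CPM, where 0.00016 is the smallest p this design allows. The 95% interval of the log2 difference, from the same permutations, ran from -1.24 to -0.24. In bulk tissue, fewer germ cells and less DDX4 RNA per germ cell cannot be told apart.

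The drop in DDX4 was of moderate size among genes. Its p ranked 976 of 11148, and 6.69% of the genes tested had a larger drop, while the median log2 difference of all genes tested was 0.01. At the same threshold 10.6% of genes tested were lower with the low diet and 10.9% were higher. Differential expression as the study defined it also needs a ratio of mean CPM above 1.5, which 604 genes passed in the lower direction (5.42% of those tested) and 1204 in the higher direction. On library totals these numbers were 455 and 1563. DDX4 missed this second criterion, since its mean CPM was 1.47 times higher with the high diet. The ratio was 1.53 for the medians and 1.69 for means of TMM-scaled CPM, so the side of the criterion on which DDX4 fell depended on the scale. The study's own list of genes that differed holds DDX4 all the same. The legend of that list, unlike the methods, gives an adjusted p under 0.05 and names no ratio. On the recovered reads edgeR's exact test gave DDX4 an adjusted p of 0.026. The reason for its place on the list was not tested.

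The size of the difference rested in part on high diet sheep 5 and 8, which had the highest DDX4 levels as well as the smallest TMM factors. Without both, the log2 difference was -0.52 with an adjusted p of 0.22 (limma), and the ratio of mean CPM was 1.32. Leaving out 1 sheep at a time gave adjusted p-values of 0.019 to 0.12 (limma), above 0.1 without high diet sheep 5, 6 or 8 and without low diet sheep 4 or 6. With testis weight as a covariate the log2 difference was -0.55 (adjusted p = 0.85, limma), and 0 of all 11148 genes tested passed. Testis weight went with diet, since the low diet sheep held ranks 1 to 6, 8 and 14 of 16. This model therefore cannot tell diet and testis weight apart. On library totals alone the log2 difference was -0.57 (adjusted p = 0.076, limma), against a median of 0.17 for all genes tested on that scale. DDX4 thus lay 0.74 below the median gene there and 0.75 below it with TMM factors. A scaling factor moves all genes of a library nearly alike, so the closeness of these values is built in. DDX4 on the log2 scale moved with the TMM factor (r = -0.77 over 16 sheep, -0.84 in the high diet and -0.20 in the low diet group) and with the log2 library total (r = 0.50, 0.72 and -0.22). These are descriptions of libraries that enter both measures, and the part of depth and composition in the diet difference was not tested.

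The traits of these testes that the study gives for each ram offer a measure of germ cell content outside the sequencing. Testis weight, volume of the seminiferous epithelium (the germ cell layer of the tubules), sperm number per testis, tubule diameter and apoptotic germ cells per tubule overlapped between diets and were set against DDX4 over all 16 sheep. DDX4 rose with testis weight (Pearson r = 0.57, permutation p = 0.021, Spearman rho = 0.54, permutation p = 0.034) and with epithelium volume (r = 0.58, p = 0.020, rho = 0.60, p = 0.015, permutation tests). For sperm number the values were r = 0.49 (permutation p = 0.057) and rho = 0.63 (p = 0.010). For tubule diameter they were r = 0.45 (permutation p = 0.080) and rho = 0.56 (p = 0.026), and for apoptotic germ cells r = -0.36 (permutation p = 0.17) and rho = -0.57 (p = 0.025). After Benjamini-Hochberg adjustment over these 5 relations, the p of r was 0.052 for testis weight and epithelium volume, 0.095 for sperm number, 0.10 for tubule diameter and 0.17 for apoptotic germ cells. The adjusted p of rho lay between 0.033 and 0.034 for all 5. The size of rho exceeded that of r for each trait except testis weight.

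**Figure D2:**
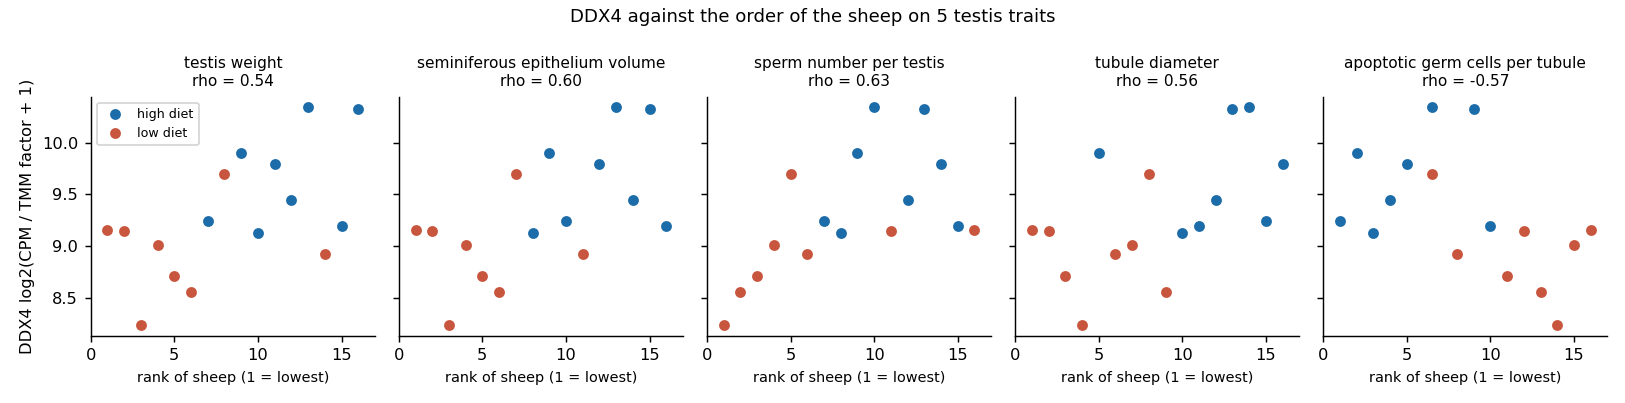
DDX4 as log2(CPM over TMM factor + 1) against the rank of each sheep on 5 testis traits (1 = lowest), with high diet sheep in blue and low diet sheep in red, n = 16 in each panel. DDX4 climbs with testis weight, epithelium volume, sperm number and tubule diameter (rho 0.54 to 0.63) and falls with apoptotic germ cells per tubule (rho -0.57), with most high diet sheep at one end of each panel and most low diet sheep at the other.

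When the 2 sheep with the most extreme values of a trait, measured from its median, were left out, r was 0.64 for testis weight (permutation p = 0.015), 0.56 for epithelium volume (p = 0.036), 0.61 for sperm number (p = 0.023), 0.51 for tubule diameter (p = 0.065) and -0.65 for apoptotic germ cells (p = 0.012). No relation changed sign without those sheep. With all sheep, r was -0.36 for apoptotic germ cells (permutation p = 0.17) and 0.49 for sperm number (p = 0.057). Whether the p of these relations fell under 0.05 thus depended on those sheep. Each Pearson r was weaker among sheep of the same diet. The rank correlation with sperm number in the low diet group, given below, was not. With the mean of each diet removed from both measures, r was 0.23 for testis weight, 0.16 for epithelium volume, 0.30 for sperm number, -0.08 for tubule diameter and 0.02 for apoptotic germ cells, with permutation p between 0.26 and 0.96. Without high diet sheep 5 and 8, r was 0.41 for testis weight (permutation p = 0.14) and 0.40 for epithelium volume (p = 0.15).

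Within a diet, 12 relations were computed, the 5 traits above and the change of scrotal circumference in each group. The latter was used within diets alone because the diets did not overlap on it. No r had an exact permutation p under 0.05, and r ran from -0.22 for scrotal change in the high diet group to 0.38 for sperm number in the low diet group. The rank correlation of DDX4 with sperm number was 0.81 in the low diet group (exact permutation p = 0.022, adjusted p = 0.26 over 12) and 0.14 in the high diet group (exact p = 0.75). In 8 sheep only a strong relation can pass, so weaker ones within a diet were not detectable at this number. The plot of DDX4 against trait ranks shows the sheep that broke the order. Low diet sheep 8 was rank 14 of 16 for testis weight but rank 4 for DDX4. Low diet sheep 2 was lowest for testis weight and highest for both sperm number and apoptotic germ cells, and was rank 8 for DDX4.

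Whether DDX4 fell more or less than other germ cell transcripts was asked with ratios inside each library, which depend neither on depth nor on the TMM factor. The ratio is log2 of DDX4 CPM plus 1 minus log2 of the CPM plus 1 of a reference gene, and it is not corrected for transcript length, so its value means something between sheep and not between genes. The references were the most abundant genes with a symbol in each list, RNF17 for the nuage, SYCP2 for meiotic spermatocytes, SPATA6 for spermatids and VIM for Sertoli cells. Symbols were available only for genes that the study had selected as differing between these diets. The direction of each reference on these sheep was thus fixed by that choice, and the 4 tests below are not independent evidence of it.

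RNF17 is a Tudor domain protein of the male germ cell granules. The ratio of DDX4 to RNF17 ran from -0.52 to 0.01 in the high diet group (mean -0.22 ± 0.16, SD, n = 8) and from -0.31 to 0.79 in the low diet group (mean -0.01 ± 0.35). The difference was 0.20 (95% interval -0.04 to 0.49, exact permutation p = 0.14, adjusted p = 0.26 over the 4 references). With MAEL, a second piRNA factor, in its place the difference was -0.13 (exact permutation p = 0.41).

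Against SYCP2, a protein of the synaptonemal complex that joins chromosomes in meiosis, the ratio was 0.01 ± 0.52 with the high diet and 0.49 ± 0.84 with the low diet. The difference of 0.48 lay within the spread between sheep (95% interval -0.25 to 1.24, exact permutation p = 0.20, adjusted p = 0.26). With LDHC, the testis lactate dehydrogenase, in place of SYCP2 the difference was 0.28 (exact permutation p = 0.058). Against SPATA6, which is needed to build the connecting piece of the sperm tail, the ratio was -0.74 ± 0.31 and -0.88 ± 0.23, a difference of -0.13 (95% interval -0.42 to 0.15, exact permutation p = 0.34, adjusted p = 0.34). With CAPZA3, a spermatid actin-capping subunit, in place of SPATA6 the difference was 0.01 (exact permutation p = 0.96). No difference between DDX4 and these 3 germ cell references passed the test, and the intervals allow log2 differences of up to 0.49 for RNF17 and 1.24 for SYCP2.

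The ratio of DDX4 to VIM, an intermediate filament of Sertoli cells and of mesenchymal cells in general, separated the diets. It ran from 2.15 to 3.91 with the high diet (mean 2.93 ± 0.63) and from 0.49 to 3.09 with the low diet (mean 1.42 ± 0.76). All low diet sheep but sheep 1, 7 of 8, lay below every high diet sheep. The difference was -1.52 on the log2 scale (95% interval -2.23 to -0.76, exact permutation p = 0.0012, adjusted p = 0.0050). With CLDN11, the Sertoli cell tight junction protein, in place of VIM it was -1.61 (exact permutation p = 0.00047). Leaving out high diet sheep 5 and 8 gave -1.23 against VIM (exact permutation p = 0.0057). The direction of VIM and of CLDN11 was set by the choice of genes, so these tests are not independent evidence of a separation.

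**Figure D3:**
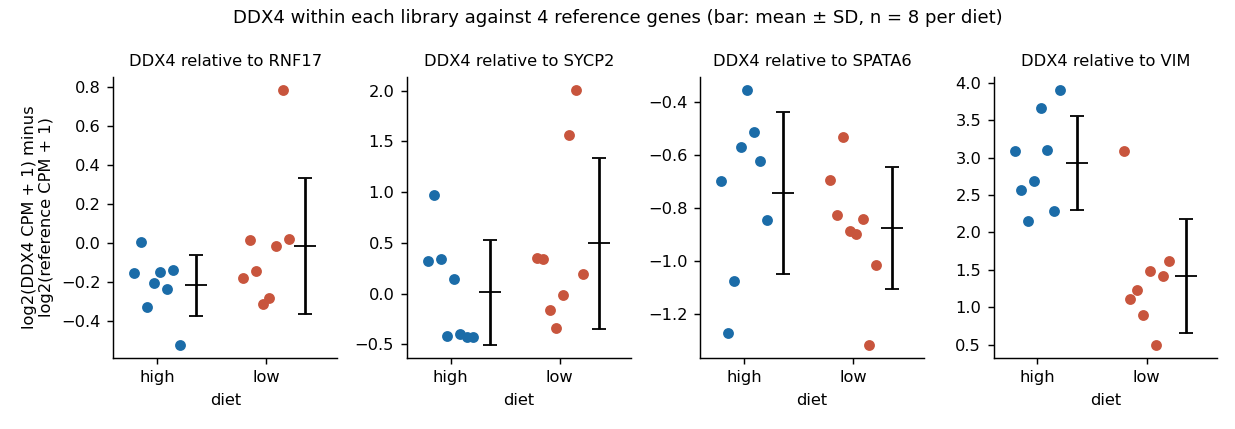
Log2 of DDX4 CPM plus 1 minus log2 of reference CPM plus 1 within each library, for RNF17, SYCP2, SPATA6 and VIM, with high diet sheep in blue, low diet sheep in red and mean ± SD as bars (n = 8 per diet). The diets overlap for the 3 germ cell references, with differences of 0.20, 0.48 and -0.13, and separate for VIM, where 7 of 8 low diet sheep lie below every high diet sheep. The direction of each reference was set by the choice of genes.

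The levels of other germ cell transcripts are given here beside DDX4. The counts describe lists whose measured members carry a symbol only because the study had picked them as differing on these sheep. A high share is thus built in and nothing is read from it beside the backgrounds of 10.6% lower and 10.9% higher. Of 25 nuage and piRNA genes listed, 7 had an identifier, and all 7 were lower with the low diet at an adjusted p under 0.1 (limma), with a median log2 difference of -0.90 against 0.01 for all genes tested. RNF17 fell from 930 ± 283 to 563 ± 224 CPM (log2 difference -0.95, SE 0.28, adjusted p = 0.047). MAEL, a nuage protein of the piRNA pathway, fell by 0.61 on the log2 scale, the germ cell kinase STK31 by 0.93 and the Tudor domain gene TDRD5 by 0.60. The difference was larger than that of DDX4 in 5 of these 7 genes. Without high diet sheep 5 and 8, 1 of the 7 passed (limma, 7 of 7 at an unadjusted p under 0.05) and the median was -0.65. In that setting 266 of all 11069 genes tested passed (2028 at an unadjusted p under 0.05), with a median of -0.04.

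Of 25 meiotic genes listed, 12 had an identifier and 11 were lower (median -1.11). SYCP2 went from 838 ± 345 to 447 ± 229 CPM (log2 difference -1.23, adjusted p = 0.074, limma), and LDHC from 717 ± 260 to 390 ± 117 CPM (-1.02, adjusted p = 0.032). BOLL, an RNA-binding protein of the DAZ family, was lower by 0.81 (log2 difference -0.81), and the meiotic cohesin SMC1B at -0.61 did not pass (adjusted p = 0.17, limma). Of 30 spermatid genes listed, 7 had an identifier and 6 were lower (median -0.77). SPATA6 went from 1307 ± 245 to 973 ± 230 CPM (-0.61, adjusted p = 0.068, limma), the acrosomal genes ZPBP and SPACA1 had differences of -0.77 and -0.86, and CAPZA3 at -0.76 did not pass (adjusted p = 0.13). Without high diet sheep 5 and 8, 2 of 12 meiotic and 1 of 7 spermatid genes passed, where 266 of all 11069 genes tested did. At an unadjusted p under 0.05 (limma) these were 9 of 12 and 6 of 7. On library totals 9 meiotic and 4 spermatid genes passed, where 2311 of all 11148 genes tested did. Every member of the nuage, meiotic and spermatid lists kept its sign under all 3 of these alternatives, DESeq2 size factors included. The largest drops, chosen after the values were seen, were those of CATSPERB, a subunit of the sperm calcium channel (-1.93), and TDRD15 (-1.50). None of the 17 spermatogonial genes listed had an identifier, so the earliest germ cells had no marker of their own here.

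The somatic cell markers are given under the same limit, since their symbols came from the same selected genes. All 8 Sertoli cell genes with an identifier, of 18 listed, were higher with the low diet (median 0.99), among them VIM (102 ± 20.5 to 203 ± 64.1 CPM), CLDN11 (62.8 ± 13.6 to 148 ± 97.9 CPM), the FSH receptor FSHR (37.4 ± 4.34 to 70.1 ± 12.7 CPM) and the inhibin subunit INHA (20.8 ± 10.4 to 55.3 ± 28.9 CPM). Their summed level was 187 to 328 CPM in the high diet group and 336 to 772 CPM in the low diet group, with no overlap. Without high diet sheep 5 and 8, 4 of the 8 passed (limma, 8 of 8 at an unadjusted p under 0.05), where 266 of all 11069 genes tested did. All 3 peritubular genes with an identifier, of 7 listed, the smooth muscle genes MYH11, TPM2 and DES, were higher (log2 differences 1.25, 0.71 and 0.89), with summed levels that overlapped, 57.1 to 274 CPM against 140 to 558 CPM. Of these 3, 0 passed without high diet sheep 5 and 8 (limma, 3 of 3 at an unadjusted p under 0.05). STAR, which carries cholesterol into mitochondria for steroid synthesis and was the single Leydig cell gene of 9 with an identifier, was lower (log2 difference -1.45, adjusted p = 0.020, limma). Of 3 leukocyte genes of 10 listed, PTPRC was higher (0.80) and CD28 and CD69 lower (-0.84 and -0.86), at a summed level of 47.3 to 83.0 CPM and 39.1 to 85.4 CPM. On library totals PTPRC alone of these 3 passed (adjusted p = 0.12 for CD28 and 0.11 for CD69, limma), and without high diet sheep 5 and 8, 0 of 3 passed (1 at an unadjusted p under 0.05). None of 8 endothelial and blood genes had an identifier. No member of any list was at 0 in any library. The sums were not tested, their direction being set by the choice of genes, and the part of the cell mixture in the difference of DDX4 was not tested.

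**Figure D4:**
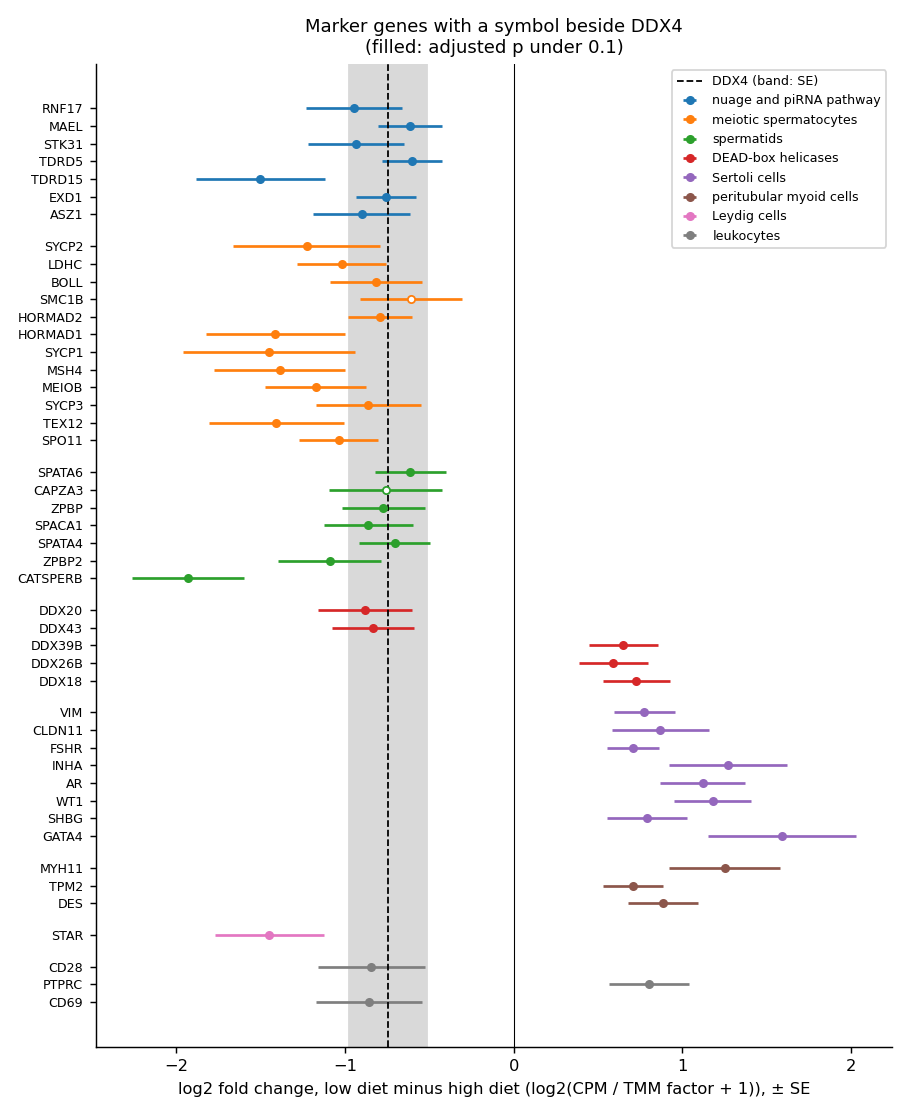
Log2 difference, low diet minus high diet, ± SE for the marker genes with a symbol, grouped by list in color, with DDX4 as a dashed line and its SE as a grey band. Filled points have an adjusted p under 0.1 (limma), and the germ cell genes lie left of 0 around or beyond DDX4 at -0.74 while the Sertoli and peritubular genes lie right of 0.

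The other genes whose symbol begins with DDX did not all move the same way. They were taken by symbol, and membership of the DEAD-box family was not checked. Their symbols came from the study's lists of genes differing between these diets, so a high share of calls is built in. The backgrounds were 10.6% lower and 10.9% higher, and 266 of 11069 genes passed without high diet sheep 5 and 8. Of these 5 genes, DDX20 (a partner of the SMN complex, from 1051 ± 414 to 629 ± 210 CPM) and DDX43 (from 72.8 ± 20.2 to 46.1 ± 14.7 CPM) were lower, with log2 differences of -0.88 and -0.83. DDX39B, which acts in mRNA splicing and export, DDX26B, counted here by its symbol, and DDX18, which acts in ribosome assembly, were higher, by 0.65, 0.59 and 0.73 on the log2 scale. All 5 had an adjusted p under 0.1 (limma), 0 of 5 did without high diet sheep 5 and 8 (5 of 5 at an unadjusted p under 0.05), DDX26B did not with DESeq2 size factors (adjusted p = 0.12), and all kept their sign under the 3 alternatives. Over the 16 sheep DDX20 and DDX43 had r = 0.94 and 0.93 with DDX4, while DDX39B had -0.91, DDX18 -0.86 and DDX26B -0.10.

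The genes whose log2 levels followed DDX4 most closely over the 16 sheep were CLGN (r = 0.98), the chaperone calmegin, needed for sperm to bind the egg, and NCAPG, a condensin subunit. SCYL2, the mitochondrial protease subunit CLPX, the acrosomal ZPBP2, OXR1, PIH1D2, the germ cell heat shock protein HSPA4L, the dynein chain DYNC2LI1 and ENSOARG00000001975 came next, all at r = 0.98. CLGN ran from 2366 to 5358 CPM in the high diet group (median 3344) and from 896 to 3400 CPM in the low diet group (median 2040). With the diet means removed, r was 0.97 for both CLGN and NCAPG, 8 of the 10 genes stayed among the closest 10, and PNPLA8 and CCDC83 entered. On library totals 7 of the 10 were shared. For CLGN r was 0.98 in the high diet group and 0.97 in the low diet group. The genes were picked by their r over these same 16 sheep. A high r within a diet is thus largely built in and is not separate evidence of a likeness.

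**Figure D5:**
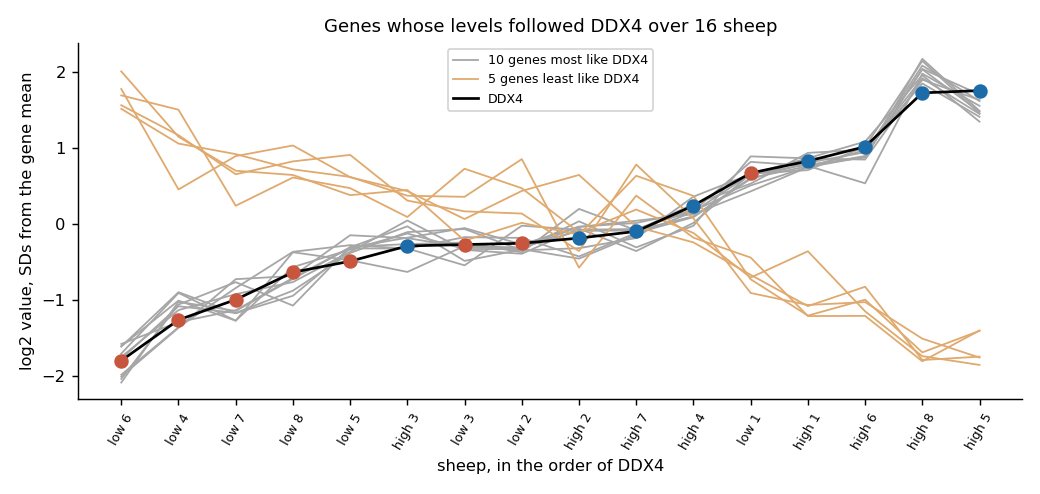
Log2 level in SDs from each gene's mean for DDX4 (black, points blue for high diet and red for low diet), the 10 genes most like it (grey) and the 5 least like it (orange), with the 16 sheep ordered by DDX4. The grey lines climb with DDX4 from low diet sheep 6 to high diet sheep 5, all at r = 0.98 with it, and the orange lines fall, at r between -0.96 and -0.95.

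The genes least like DDX4 were ENSOARG00000009777 (r = -0.96), SEMA4C (r = -0.96), and ENSOARG00000015642, the receptor phosphatase PTPRS and the zinc finger gene ZMYM3 (r = -0.95 each). On library totals their r lay between -0.94 for PTPRS and -0.89 for SEMA4C. SEMA4C, a semaphorin, rose from 3.27 ± 1.83 to 8.27 ± 4.04 CPM, and ZMYM3 rose from 39.3 ± 18.8 to 83.4 ± 22.9 CPM (adjusted p = 0.047 and 0.028, limma). Many genes followed DDX4 or ran against it. Among the 11147 other genes tested, 657 had r above 0.9 with DDX4, 1577 above 0.8 and 1219 below -0.8, with a median of -0.04, and 763 were above 0.8 in both diets. These counts depended on the scale. On library totals 342 genes were above 0.9 and 1064 above 0.8. With the diet means removed, 308 were above 0.9, 1160 above 0.8 and 639 below -0.8. DDX4 followed the first principal component of all genes tested (absolute r = 0.89, with 0.91 in the high diet and 0.79 in the low diet group), which held 59.6% of the variance. These correlations are descriptions over 16 libraries in which both genes share the library, its depth and its TMM factor, and they say nothing of shared function or control.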

How the data were processed

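Testis RNA of 16 sheep (8 per diet, 1 library each) was analysed. The authors demultiplexed the reads with CASAVA 1.8, aligned them to Oar_v3.1 with TopHat2 2.0.10, counted them on Ensembl genes with HTSeq and deposited CPM values for each library without a gene filter. The strand setting of the counting was not given in the sources used here, so reads of an overlapping antisense gene could not be told apart from those of DDX4. All values (100%) were whole multiples of 1 read within 0.1 read, so reads were recovered from CPM. The unit is CPM, so a count test was not the primary result, although the methods of the study used edgeR. Diets were compared with limma 3.58.1 (trend) on log2(CPM over TMM factor + 1) for genes that exceeded 5 CPM in 8 or more libraries, with a Benjamini-Hochberg adjusted p under 0.1. TMM factors came from edgeR 4.0.16 in R 4.3.3. On the recovered reads, edgeR's quasi-likelihood test called 1673 genes at that threshold with a ratio of mean CPM above 1.5, its exact test 1930 and DESeq2 1.42.0 2159, against 1808 with limma. A pseudocount understates the change of low genes. The limma script was tested on simulated data.

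Single values were compared with exact permutation tests, and traits with 100000 resamples (Python 3.11.15, scipy 1.17.1, numpy 2.4.6, pandas 2.3.3, matplotlib 3.10.9). Trait values and 1763 symbols came from the study's supplementary tables, which also hold the authors' own fold changes and p-values, not used here. The genes named were DDX4, up to 4 genes of each marker list in order of mean CPM, and genes whose symbol begins with DDX. The 10 genes most and 5 least correlated with DDX4 were also named, with and without the diet means. The gene and lists were chosen with earlier results of these data known. P-values set a difference or a correlation against the variation between rams. Alternatives covered scaling, filter, pseudocount, test, replicate block, testis weight as a covariate, reference gene and each sheep left out in turn. Leaving out high diet sheep 5 and 8, and the marker counts under other scalings, were chosen after seeing the data.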

Additional observations from a re-analysis of the deposited data

Results flagged for a closer look

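In 2 of 10 groups of 8 sheep, 1 sheep stood apart from the rest, with a gap to its neighbour of over 0.526 of the group's range, the 95% limit of Dixon's test for 8 values. Chance gives about 1 in 20 groups. In low diet sheep 7 the log2 ratio of DDX4 to RNF17 was 0.79, with a gap of 0.696 of the range, where the other low diet sheep lay between -0.31 and 0.02. RNF17 stood at 242 CPM in that sheep, its lowest level in the low diet group, and DDX4 at 419 CPM. In low diet sheep 1 the log2 ratio of DDX4 to VIM was 3.09, with a gap of 0.565 of the range. This sheep had the highest DDX4 level (834 CPM) and the lowest VIM level (97.2 CPM) of the low diet group.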

How the results depend on the processing

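The log2 difference of DDX4 between diets was negative under every alternative run (-0.87 to -0.52). With testis weight as a covariate it was -0.55 with an adjusted p of 0.85, where limma called 0 genes (544 at an unadjusted p under 0.05, other tools not run in this design). Without high diet sheep 5 and 8, chosen after seeing the data, it was -0.52 with an adjusted p of 0.22, and 261 genes were called. With the replicate block it was -0.74 with an adjusted p of 0.098 (limma), and 1067 genes were called against 1808. The numbers are shared labels only, since same-numbered deviations correlated at -0.63 to 0.70 (2 of 8 above 0.1, and 1 high diet sheep best with its own number). With 1 sheep left out the difference ran from -0.87 to -0.64 (adjusted p 0.019 to 0.12, limma). It missed the threshold without high diet sheep 5 (0.110), 6 (0.102) or 8 (0.107) and without low diet sheep 4 (0.112) or 6 (0.117), and genes called ran from 674 to 2684. That count changed by over 1.5 times without high diet sheep 1 (1018), 5 (836), 6 (930) or 8 (865) or low diet sheep 4 (843) or 6 (674). The ratio of mean CPM was 1.53 for medians and 1.69 for TMM-scaled CPM, and 1.39 to 1.60 with 1 sheep left out, above 1.5 without high diet sheep 2, 3 or 7 or low diet sheep 1, 2 or 3.

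With diet means removed, r with tubule diameter turned to -0.077 and with apoptotic germ cells to 0.015, and fell to 0.23 for testis weight and 0.16 for epithelium volume. On library totals these last 2 were 0.47 and 0.49 and sperm number 0.53 (permutation p 0.062, 0.056 and 0.037). Without high diet sheep 5 and 8 they were 0.41 for testis weight and 0.40 for epithelium volume. Without the 2 farthest sheep, sperm number was 0.61 and apoptotic germ cells -0.65. With 1 sheep left out, r ran from 0.48 to 0.67 for testis weight (p over 0.05 without high diet sheep 8 or low diet sheep 6), 0.49 to 0.65 for epithelium volume (without high diet sheep 8), 0.39 to 0.68 for sperm number, 0.39 to 0.53 for tubule diameter and -0.59 to -0.33 for apoptotic germ cells. P passed 0.05 for sperm number without high diet sheep 2 or 5 or low diet sheep 1 or 2, for tubule diameter without high diet sheep 6 or low diet sheep 4, and for apoptotic germ cells without low diet sheep 2.

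A second reference turned the ratio to RNF17 (-0.13 with MAEL) and to SPATA6 (0.013 with CAPZA3), and gave 0.28 with LDHC for SYCP2 (exact permutation p = 0.058). With 1 sheep left out the ratios ran from 0.09 to 0.24 for RNF17, 0.27 to 0.62 for SYCP2, -0.21 to -0.07 for SPATA6 and -1.76 to -1.38 for VIM. The cause of these changes was not tested. DDX4 had at least 3542 reads in every library, so its counting error was small. The part of depth in its diet difference was not tested.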

Other observations

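High diet sheep 3 had the lowest DDX4 of its group (566 CPM) with the highest VIM of its group (127 CPM), and high diet sheep 8 combined 947 CPM of DDX4 with the lowest VIM of all 16 sheep (62.3 CPM). In the low diet group the highest VIM (290 CPM) belonged to sheep 2, whose DDX4 level of 629 CPM was the third highest of its group on library totals. High diet sheep 2, second lowest for DDX4 in its group after TMM scaling, was rank 16 of 16 for epithelium volume and rank 15 for testis weight and sperm number.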
